A study of Mus musculus with 11 samples.

Results

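The DNA replication machinery is described here through genes that load the replicative helicase at origins, unwind and copy DNA, join the lagging strand and supply deoxynucleotides. A list of 41 genes was drawn up by symbol, and 40 of them had a row among the 38197 genes of the deposited count table. Cdt1 was not analysed here. Expression was followed in E14, an established line of mouse embryonic stem cells, of strain 129 and wild-type genotype, as it differentiated in monolayer toward ventral hindbrain neurons. The groups, all of the same line and genotype, were undifferentiated stem cells at day 0 and whole cultures at days 1, 2 and 3, with 2 libraries each. A further 3 libraries held neural progenitors sorted for Prominin-1. The cultures received RA (retinoic acid, a caudalizing signal of the neural tube) and SAG, a Smoothened agonist that turns on the hedgehog pathway, over days 0 to 3. The cell status of the sorted libraries reads d3.5 while their cell type entry mentions 3 days, and they are called day 3.5 below.

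DNA replication starts when the origin recognition complex, with Cdc6, places the ring-shaped Mcm2-7 helicase on DNA in G1, a step called licensing that geminin (Gmnn) blocks later in the cycle. In S phase Cdc45, the GINS complex and Mcm10 turn the loaded ring into an active helicase. Primase and the polymerases alpha, delta and epsilon copy both strands, and the clamp PCNA holds the polymerases on DNA. Most of these genes are transcribed in the G1 and S phases under E2F factors. Mouse embryonic stem cells are known for a short G1 phase and for a large share of cells in S phase, and the cell cycle slows as neural progenitors give rise to neurons.

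The promoters of several of these genes are shown first. Some of the genes, but not all, hold sequence letters that E2F or the CCAAT-binding factor NF-Y is known to recognise. RefSeq windows on GRCm38.p6, running from 250 bases before to 50 bases after an annotated start, were matched by symbol for 34 of the 40 genes. The genes Gmnn, Mcm4, Gins1, Prim2, Pole and Rfc2 had no match. The 150 bases before the start are printed for the loading factor Cdc6, the helicase subunits Mcm5 and Mcm6 and the activation factor Mcm10, each 5′ to 3′ on the strand of the gene. They were chosen after the motifs were counted, and their 150 printed bases overlap no exon of the GENCODE M21 annotation. In that annotation the Cdc6 gene begins at chr11:98907801, so its stretch, placed by the RefSeq start, lies inside the gene. Capitals mark the E2F-type letters TTTCCCGC, TTTCGCGC, TTTGCCGC or TTTGGCGC and the letters CCAAT, each searched on both strands.
Cdc6 (chr11:98908001-98908150, plus strand): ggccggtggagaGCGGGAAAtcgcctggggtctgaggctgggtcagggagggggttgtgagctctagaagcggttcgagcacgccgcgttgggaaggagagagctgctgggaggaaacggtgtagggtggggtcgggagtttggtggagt
Mcm5 (chr8:75109359-75109508, plus strand): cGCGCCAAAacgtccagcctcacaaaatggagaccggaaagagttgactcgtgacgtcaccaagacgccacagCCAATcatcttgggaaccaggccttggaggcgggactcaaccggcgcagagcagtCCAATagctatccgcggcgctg
Mcm6 (chr1:128359706-128359855, minus strand): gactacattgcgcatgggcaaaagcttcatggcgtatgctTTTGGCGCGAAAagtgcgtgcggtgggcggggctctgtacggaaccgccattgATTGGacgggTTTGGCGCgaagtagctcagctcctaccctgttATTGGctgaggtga
Mcm10 (chr2:5012792-5012941, minus strand): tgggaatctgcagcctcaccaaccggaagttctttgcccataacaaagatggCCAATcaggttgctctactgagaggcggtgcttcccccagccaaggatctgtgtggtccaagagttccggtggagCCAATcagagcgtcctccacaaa
The Mcm6 stretch holds 3 E2F-type matches, of which one pair overlaps, and 2 CCAAT matches. The Mcm5 stretch holds 1 E2F-type match and 2 CCAAT matches, and the Cdc6 stretch holds 1 E2F-type match and no CCAAT match. The Mcm10 stretch holds 2 CCAAT matches and none of the E2F-type letters. Over the whole windows, E2F-type letters stood in 13 of the 34 matched replication genes (38.2%), against 704 of 27025 genes with a window (2.60%). Those 27025 genes were not limited to genes expressed here, whereas the replication genes were all expressed enough to be tested, so the 2 sets are unlike. CCAAT stood in 22 of 34 (64.7%), against 41.1% of all genes with a window, and 2 or more CCAAT matches in 13 of 34 (38.2%), against 13.3%. Genes with more than one annotated start have more windows in which to match. Among genes with a single window the E2F-type shares were 11 of 28 (39.3%) and 2.32%. A match describes the letters only and is not evidence of binding in these cells.

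Polyadenylated RNA was sequenced to between 13173674 and 30384599 counts per library, the 3 sorted libraries being the shallowest and carrying a prefix of their own in their descriptions, which the labels do not explain. Levels below are CPM, counts relative to library size, scaled by TMM factors. Fold changes are log2 values from edgeR's quasi-likelihood test ± SE, with p-values adjusted over all genes tested and called under 0.05. The labels do not say that replicates came from separate cultures, so the p-values measure the spread between these libraries only. The 6 pluripotent stem cell markers summed to 24.99 and 17.53 CPM at day 3, against 1018 and 1092 CPM at day 0. Neural progenitor markers summed to between 1536 and 1797 CPM in the sorted cells, against 1138 and 1157 CPM in day 3 cultures. Of these 8 markers, 6 estimates were above 0 and 2 below, and 1 was called higher. The widest differences in mean CPM were those of Nes (888 against 589) and Fabp7 (161 against 24.0). Means of Sox1 (60.6 against 77.8) and Pax6 (34.5 against 39.3) were lower in the sorted cells. In the sorted cells the 10 neuron markers still summed to between 1217 and 1828 CPM, against 1172 and 1464 CPM at day 3. Prom1 itself was at 298 ± 28.4 CPM (SD, n = 3), against 239 ± 34.2 CPM (SD, n = 2) at day 3, a difference that did not pass the test (log2 fold change 0.33 ± 0.15, adjusted p = 0.316). Replicate libraries of a day differed along GC content, and replicate 1 of day 3 was below replicate 2 in 38 of 40 replication genes, against 50.8% of all genes. Both patterns are given beside the results they touch.

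The replication genes as a group were highest in stem cells and fell during differentiation. Their summed level was 9603 and 10010 CPM in stem cells, 7515 and 7284 after 1 day, 7325 and 7391 after 2 days, 4826 and 6320 after 3 days, and 6632, 6652 and 6241 in the sorted cells. Both day 0 libraries lay above all others, and both day 3 libraries lay below those of days 1 and 2. As a share of the library this was 0.507% and 0.640% at day 3, against 0.932% and 0.902% at day 0. The mean level was highest at day 0 in 34 of the 40 genes, as it was in 32.7% of all 16811 genes tested, and it was lowest at day 3 in 31 of the 40, against 31.9% of all genes. None of the 40 was highest at day 3, where 31.5% of all genes were. The test of any change over days 0 to 3 called 28 of 40 genes, against 53.7% of all genes. It called 15 members without replicate 1 of day 3 (38.1% of all genes), 17 without replicate 2 of day 2 (40.4%) and 15 on log2(FPKM + 1) values (44.9%), counts near or below the share of all genes.

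**Figure D1:**
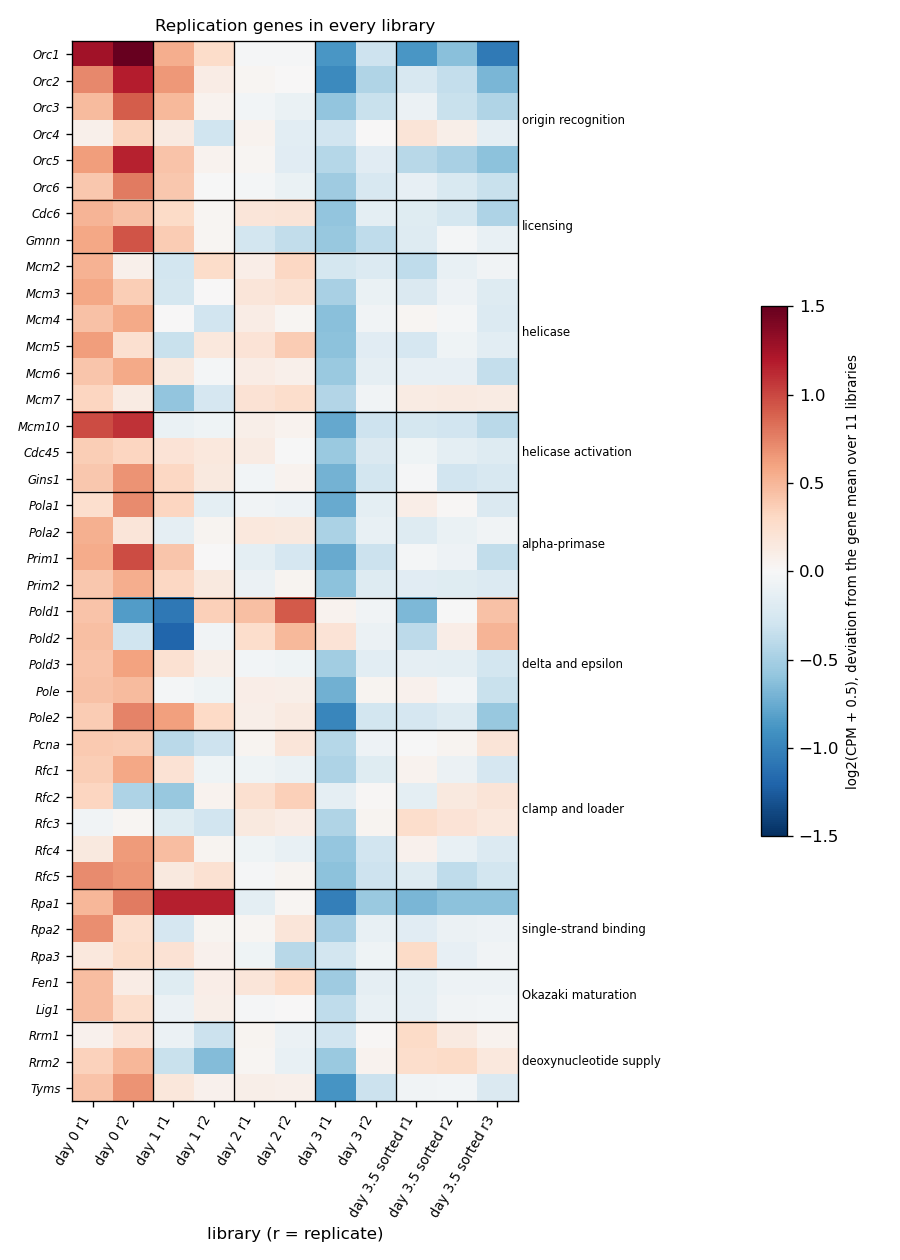
Levels of the 40 replication genes in all 11 libraries, ordered by role from origin recognition to deoxynucleotide supply, as the deviation of log2(CPM + 0.5) from the mean of each gene over the 11 libraries. Red in the day 0 columns and blue in the day 3 columns run through most roles; Rpa1 is reddest at day 1, and replicate 1 of day 3 is bluer than replicate 2 in 38 of 40 genes.

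Genes called lower at day 3 than at day 0 came from every step of replication. At day 3, 31 of 40 genes were lower than at day 0 and 0 were higher, against 26.3% of all genes called lower and 27.6% called higher. The median log2 fold change of the 40 was -0.83, against 0.016 over all genes, and the range ran from -2.08 for Orc1 to 0.07 for Pold1. Every role had called members, with 5 of 6 origin recognition genes, both licensing genes, 4 of 6 helicase subunits, 3 of 3 activation factors and 4 of 4 alpha-primase genes. The later steps had 3 of 5 delta and epsilon genes, 4 of 6 clamp and loader genes, 2 of 3 single-strand binding genes, both lagging-strand genes and 2 of 3 deoxynucleotide genes. The 9 without a call were Orc4, Mcm2, Mcm7, Pold1, Pold2, Rfc2, Rfc3, Rpa3 and Rrm1. On log2(FPKM + 1) values Mcm3, Mcm5, Pola2, Rfc4, Rpa2, Rrm2 and both lagging-strand genes, Lig1 and Fen1, also lost their call. The libraries of day 3 lay below both of day 0 in 36 of the 40, where 37.6% of all genes did, and above them in 0, where 39.8% did. Without replicate 1 of day 3 the number called lower was 19, against 17.0% of all genes, and those 19 were called in each of the 20 other settings tried for these days. In whole cultures, fewer cycling cells and less RNA per cycling cell cannot be told apart. The summed neuron markers stood at 1464 and 1172 CPM in the day 3 libraries, against 371 and 393 CPM at day 0. Of these 10 markers 9 were called higher and 1, Stmn2, was called lower. Stmn2 made up 293 and 325 CPM of the day 0 sums, against 109 and 105 CPM at day 3. The part of neurons in the decline was not tested.

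**Figure D2:**
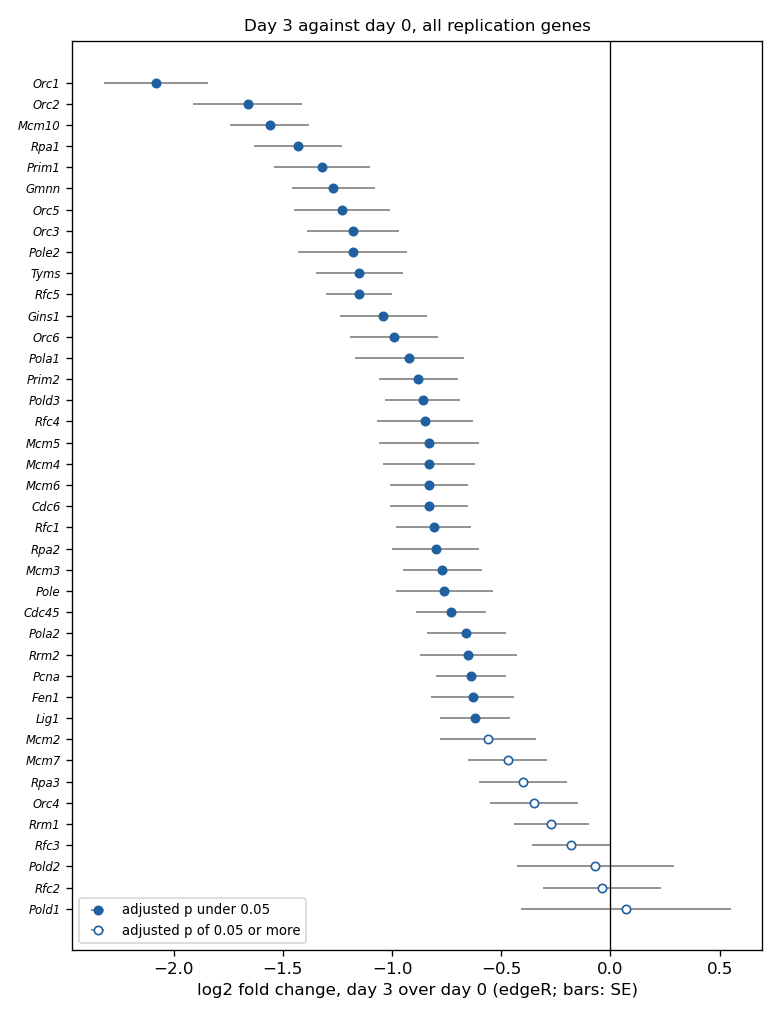
Log2 fold change of day 3 over day 0 for each of the 40 replication genes (points, with SE as bars), from edgeR over 2 libraries a day. The 31 filled points passed an adjusted p of 0.05 and all lie below 0; Orc1 is lowest at -2.08, and Pold1 at 0.07 is the only estimate above 0.

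The origin recognition complex, which marks origins and opens the way for the helicase, held the largest decline and also a member without a call. Orc1, the subunit that binds DNA and ATP with Cdc6 during loading, lies on chr4:108579423-108614833 (GRCm38, GENCODE M21, plus strand). It was at 129.2 and 175 CPM in stem cells, 78.7 and 64.9 after 1 day, 53.1 and 52.9 after 2 days, 29.0 and 43.3 after 3 days, and 29.1, 34.7 and 25.5 in the sorted cells. Its levels were lower on each following day without overlap up to day 3, and the sorted cells lay in the range of day 3 or below it. At day 3 it was 4.23-fold lower than at day 0 (log2 fold change -2.08 ± 0.24, adjusted p = 0.000122), and it was already called at day 1 (log2 fold change -1.09 ± 0.23, adjusted p = 0.0115). Orc2, a core subunit, was at 296 and 403 CPM in stem cells, 281 and 193 after 1 day, 182 and 179 after 2 days, 92.0 and 130.3 after 3 days, and 151, 139 and 110.4 in the sorted cells. It was 3.16-fold lower at day 3 than at day 0 (log2 fold change -1.66 ± 0.25, adjusted p = 0.000549), with no overlap between the libraries of those days. Orc3, Orc5 and Orc6 were lower by between 0.99 and 1.23 on the log2 scale at day 3, with adjusted p-values up to 0.00282. Orc4, another core subunit, had 94.1 and 112 CPM in stem cells, 97.9 and 72.6 after 1 day, 92.5 and 80.2 after 2 days, 73.2 and 90.1 after 3 days, and 102, 95.0 and 81.6 in the sorted cells, and its difference at day 3 did not pass the test (log2 fold change -0.35 ± 0.20, adjusted p = 0.169). A share of 29.8% of the exon bases of Orc2 overlaps Nif3l1 on the other strand, and 10.8% of those of Orc1 overlap Gm12743. Other members had such overlaps too. Among them were Rfc2 with Lat2 (15.1%), Rfc4 with Eif4a2 (12.7%), Rfc5 with Wsb2 (10.7%) and Mcm7 with Ap4m1 (7.3%). No source used here states the strand of counting, and without it reads from such pairs cannot be told apart.

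Per length of transcript, the spread between the subunits was wider at later days. On the FPKM scale Orc1 was the lowest of the 6 subunits in all 11 libraries. The ratio of Orc1 to Orc4 FPKM was 0.420 and 0.730 in stem cells, 0.381 and 0.335 after 1 day, 0.217 and 0.274 after 2 days, 0.152 and 0.204 after 3 days, and 0.0958, 0.141 and 0.108 in the sorted cells. The highest ORC subunit over the lowest was 2.65 and 1.94 in stem cells, 6.58 and 4.91 after 3 days, and between 7.08 and 10.4 in the sorted cells. Orc2 had the highest FPKM of the complex in the 4 libraries of days 0 and 1, and Orc4 in the 7 later ones. These FPKM ratios are descriptions and carry no test.

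**Figure D3:**
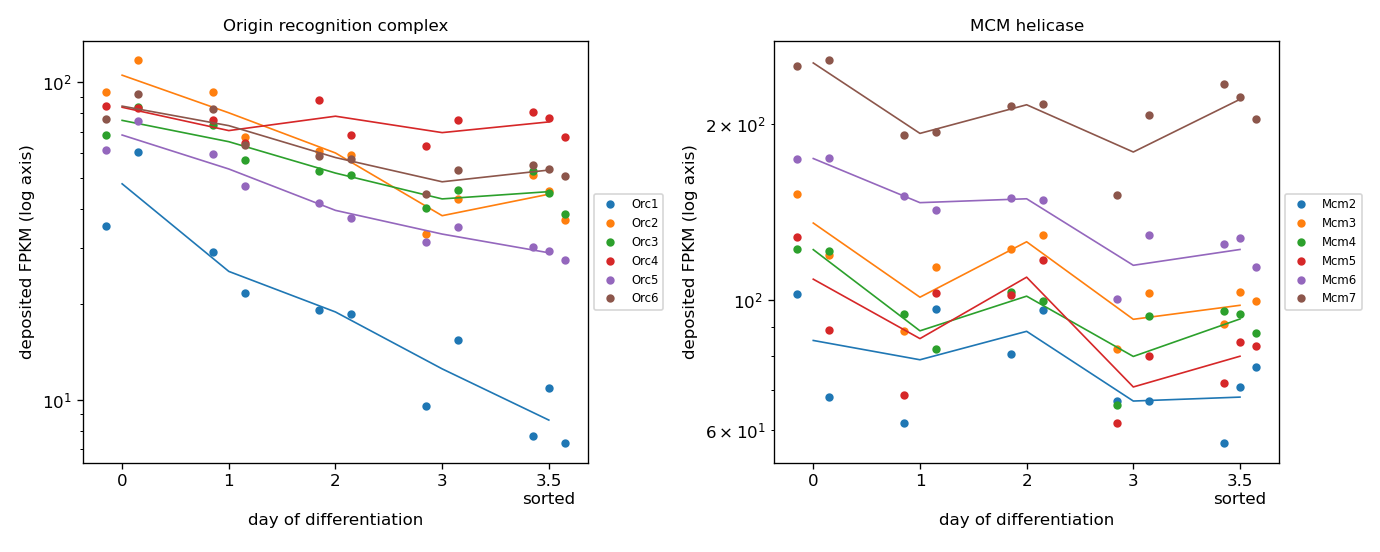
Deposited FPKM on a log axis for Orc1 to Orc6 (left) and Mcm2 to Mcm7 (right) by day, with a point for each library and lines joining day means. Orc1 lies lowest in every library and moves away from Orc4, whereas Mcm7 stays the highest helicase subunit in all 11 libraries.

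Both licensing genes measured were lower at day 3. Gmnn encodes the inhibitor geminin and was at 118 and 152 CPM in stem cells, 103 and 80.3 after 1 day, 64.9 and 60.9 after 2 days, 52.8 and 60.2 after 3 days, and 68.6, 77.2 and 73.2 in the sorted cells. The order of its day means ran down over days 0 to 3, and both libraries of each day lay below those of the day before. At day 3 it was 2.41-fold lower than at day 0 (log2 fold change -1.27 ± 0.19, adjusted p = 0.000568). Cdc6, the loading ATPase whose promoter stretch is printed above, was at 145 and 138 CPM in stem cells, 124 and 103.9 after 1 day, 116 and 117 after 2 days, 67.6 and 92.1 after 3 days, and 89.7, 84.7 and 73.8 in the sorted cells. Its libraries of days 1 and 2 overlapped, and day 3 lay below both (log2 fold change -0.83 ± 0.18, adjusted p = 0.00396 against day 0).

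The helicase ring genes had log2 fold changes at day 3 against day 0 between -0.83 and -0.47, and 4 of 6 were called. Mcm6, whose promoter holds 3 E2F-type matches, was at 675 and 748 CPM in stem cells, 559 and 496 after 1 day, 546 and 531 after 2 days, 343 and 461 after 3 days, and 465, 462 and 395 in the sorted cells. Its libraries of days 1 and 2 overlapped, below day 0 and above day 3, and day 3 was called against day 0 (log2 fold change -0.83 ± 0.18, adjusted p = 0.00415). Mcm3, another ring subunit, was at 612 and 530.4 CPM in stem cells, 341 and 412 after 1 day, 465 and 480.3 after 2 days, 293 and 382 after 3 days, and 353, 389.5 and 359 in the sorted cells. Both day 1 libraries of Mcm3 lay below those of days 0 and 2, and it was called lower at day 1 against day 0 (log2 fold change -0.61 ± 0.18, adjusted p = 0.0428) and at day 3 against day 0 (log2 fold change -0.77 ± 0.18, adjusted p = 0.00631). The second call was lost without replicate 1 of day 3, as were those of Mcm4 and Mcm5. Mcm7, whose day means dipped at days 1 and 3 as those of the other ring genes did, was at 346 and 301 CPM in stem cells, 183 and 233 after 1 day, 320.4 and 333 after 2 days, 204 and 267 after 3 days, and 302, 305 and 302 in the sorted cells. Its day 1 libraries were below all others except replicate 1 of day 3. It was called lower at day 1 (log2 fold change -0.65 ± 0.18, adjusted p = 0.0374) and higher at day 2 against day 1 (log2 fold change 0.64 ± 0.18, adjusted p = 0.0392). It was not called at day 3 against day 0 (log2 fold change -0.47 ± 0.18, adjusted p = 0.0574). On the FPKM scale Mcm7 was the highest ring subunit in every library, at 2.25 and 3.08 times Mcm2 at day 3, against 2.46 and 3.76 times at day 0. The Mcm7 gene also hosts Mir25 and Mir93, whose hairpins cover 1.9% and 2.0% of its exon bases.

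Of the 3 activation genes, Mcm10 changed most. Mcm10, which binds the ring and helps to open it into a moving helicase, is on chr2:4989714-5012791 (minus strand). Mcm10 was at 307 and 331 CPM in stem cells, 145 and 149 after 1 day, 165 and 161 after 2 days, 91.0 and 125.7 after 3 days, and 128.9, 127.2 and 117 in the sorted cells. The day 0 libraries stood at about the same level and well above all 9 later ones. Mcm10 was 2.18-fold lower at day 1 than at day 0 (log2 fold change -1.12 ± 0.17, adjusted p = 0.00309) and 2.96-fold lower at day 3 (log2 fold change -1.56 ± 0.18, adjusted p = 0.000111), the smallest adjusted p of the 40 genes in both comparisons. Gins1 is a subunit of the GINS complex, which couples the helicase to polymerase epsilon. Its levels were 51.4 and 62.3 CPM in stem cells, 48.0 and 42.8 after 1 day, 37.5 and 40.1 after 2 days, 23.5 and 32.0 after 3 days, and 38.3, 31.6 and 32.8 in the sorted cells. It stepped down more evenly, with no overlap between neighbouring days, and was called at day 3 (log2 fold change -1.04 ± 0.20, adjusted p = 0.00242 against day 0). Cdc45, the helicase partner of GINS, was also lower at day 3 (log2 fold change -0.73 ± 0.16, adjusted p = 0.0045 against day 0).

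**Figure D4:**
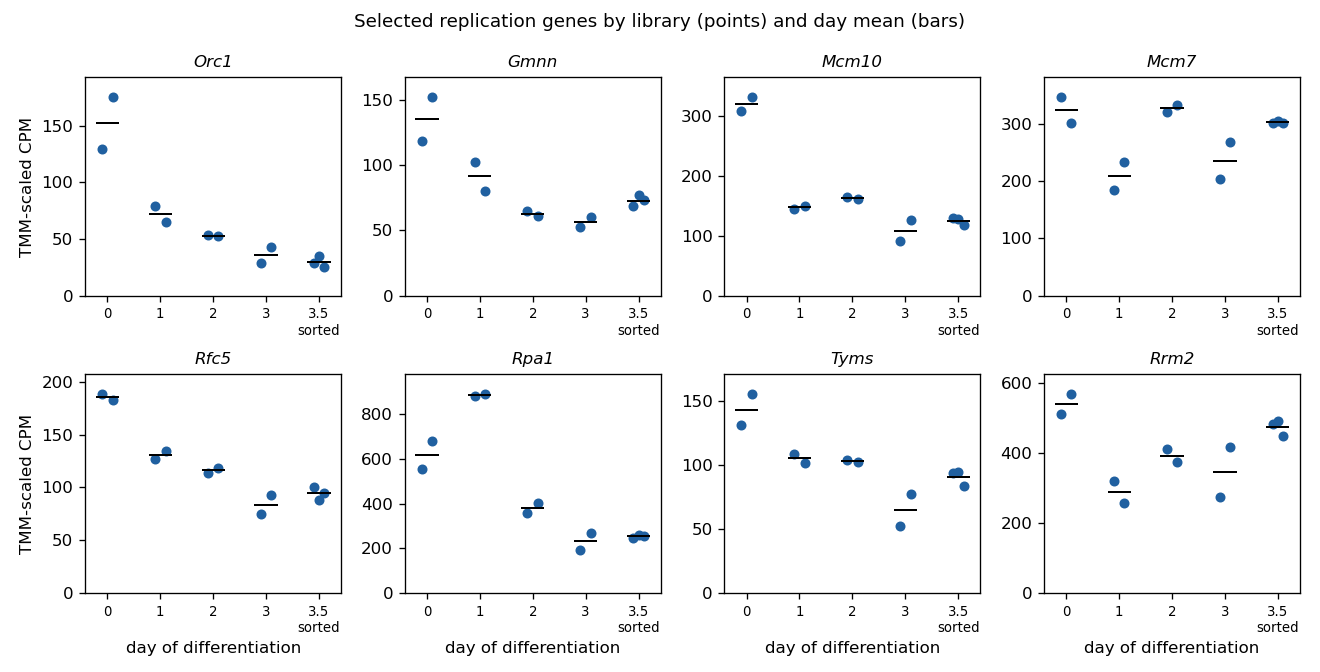
TMM-scaled CPM of 8 replication genes by day, with a point for each library and a bar at the day mean. Orc1 and Gmnn step down over days 0 to 3, Mcm10 drops at day 1, Mcm7 and Rrm2 dip at day 1, and Rpa1 peaks at day 1 at 884 and 890 CPM.

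Genes of the priming polymerase all declined. Prim1 is the catalytic primase subunit, which lays down RNA primers. Its levels were 156 and 209.8 CPM in stem cells, 142 and 107 after 1 day, 95.8 and 88.8 after 2 days, 62.5 and 84.9 after 3 days, and 104.1, 100.3 and 82.3 in the sorted cells. The libraries of each day to day 3 lay below those of the day before, and day 3 was 2.50-fold lower than day 0 (log2 fold change -1.32 ± 0.22, adjusted p = 0.00106). Prim2, the large primase subunit, was at 88.0 and 96.9 CPM in stem cells, 82.3 and 73.6 after 1 day, 62.4 and 68.0 after 2 days, 43.3 and 57.9 after 3 days, and 59.1, 58.7 and 57.5 in the sorted cells, with the same order of days and a smaller difference at day 3 (log2 fold change -0.88 ± 0.18, adjusted p = 0.00319 against day 0). Pola1 and Pola2, the catalytic and second subunits of polymerase alpha, were lower by 0.92 and 0.66 on the log2 scale (adjusted p = 0.0123 and 0.0127), and both calls were lost without replicate 1 of day 3.

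The replicative polymerases split into members that fell and members whose replicates spread too widely to tell. Pole2, the second subunit of polymerase epsilon, was at 68.9 and 89.2 CPM in stem cells, 81.6 and 65.6 after 1 day, 56.3 and 58.4 after 2 days, 26.7 and 43.5 after 3 days, and 44.5, 46.4 and 35.6 in the sorted cells. Its day 0 and day 1 libraries overlapped, and day 3 was 2.26-fold below day 0 (log2 fold change -1.18 ± 0.25, adjusted p = 0.00368). Pold3, an accessory subunit of polymerase delta, was at 158 and 179 CPM in stem cells, 137 and 125.2 after 1 day, 114 and 112 after 2 days, 81.4 and 105 after 3 days, and 106, 106 and 97.3 in the sorted cells (log2 fold change -0.86 ± 0.17, adjusted p = 0.00229 for day 3 against day 0). Pole, the catalytic subunit of epsilon, was lower at day 3 as well (log2 fold change -0.76 ± 0.22, adjusted p = 0.0169), a call lost without either replicate 2 of day 0 or replicate 1 of day 3. Pold1, the catalytic subunit of delta, had 56.5 and 23.3 CPM in stem cells, 19.7 and 53.8 after 1 day, 57.5 and 79.9 after 2 days, 43.5 and 40.6 after 3 days, and 26.1, 42.0 and 57.3 in the sorted cells. Replicates of days 0 and 1 differed by more than the days did, and the interval left by its SE is wide (log2 fold change 0.07 ± 0.48, adjusted p = 0.915 for day 3 against day 0).

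The spread of Pold1 went along with base composition. Its longest transcript is 61.0% G and C, against 58.7% for Pold2 and 50.5% for Rfc2. The 2 libraries that were low for it, replicate 2 of day 0 and replicate 1 of day 1, were also low for Pold2 at 43.7 and 23.5 CPM and for Rfc2 at 67.2 and 62.2 CPM. Replicate 1 of the sorted cells was low for Pold1 and Pold2 too, at 26.1 and 41.2 CPM, and stood at 83.4 CPM for Rfc2. Those genes too had no call at day 3 against day 0. Over the 40 genes, the log2 difference between replicates correlated with GC content at 0.75 in stem cells and at -0.79, -0.77 and 0.33 on the following days in turn. Over all genes with a GC value the same correlations were 0.50, -0.591, -0.22 and 0.257, and all are descriptions of these libraries. The 31 calls at day 3 against day 0 became 35 when counts were corrected with an offset along GC content, and 32 when those 2 libraries were left out. Over all genes the offset called 31.9% lower, against 26.3% without it, and 25.5% were lower without those libraries.

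**Figure D5:**
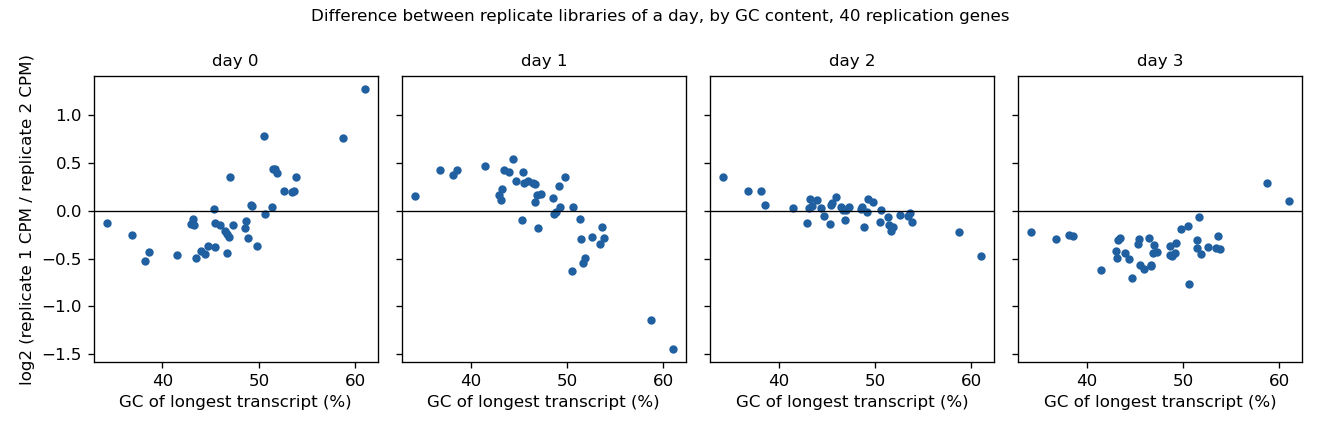
Log2 ratio of replicate 1 over replicate 2 CPM for each of the 40 replication genes (points) against the GC content of the longest transcript in percent, for days 0, 1, 2 and 3. The points climb with GC at day 0 (correlation 0.75), descend at day 1 (-0.79) and day 2 (-0.77), and lie mostly below 0 at day 3.

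The sliding clamp and its loader held members that fell and members without a call. Rfc5, a small subunit of the loader RFC, was at 188 and 183 CPM in stem cells, 126.8 and 134.6 after 1 day, 114 and 119 after 2 days, 74.7 and 92.6 after 3 days, and 100.5, 88.4 and 94.6 in the sorted cells. No libraries of neighbouring days overlapped up to day 3, and Rfc5 was lower at day 1 (log2 fold change -0.51 ± 0.15, adjusted p = 0.0412 against day 0) and at day 3 (log2 fold change -1.15 ± 0.15, adjusted p = 0.000269 against day 0). Rfc1 and Rfc4, the large and another small loader subunit, were lower at day 3 by 0.81 and 0.85 on the log2 scale (adjusted p = 0.00376 and 0.00867), the second call being lost without replicate 1 of day 3, whereas Rfc3 was not called (log2 fold change -0.18 ± 0.18, adjusted p = 0.421). Pcna, the clamp, was at 122 and 120.2 CPM in stem cells, 69.6 and 74.6 after 1 day, 95.0 and 105 after 2 days, 68.6 and 87.3 after 3 days, and 91.8, 95.2 and 106 in the sorted cells. Both day 1 libraries lay below those of days 0 and 2, and Pcna was called lower at day 1 (log2 fold change -0.75 ± 0.16, adjusted p = 0.0124 against day 0) and at day 3 (log2 fold change -0.64 ± 0.16, adjusted p = 0.0086 against day 0), the second only with replicate 1 of day 3. These Pcna values are uncertain, because the table gives the processed copy Pcna-ps2 more counts than Pcna in each of the 11 libraries, for example 6329 against 3586 in replicate 1 of day 0. Pcna-ps2 was lower at day 1 (log2 fold change -0.85 ± 0.19, adjusted p = 0.0133) and at day 3 (log2 fold change -1.02 ± 0.19, adjusted p = 0.00161) as well, both against day 0.

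Rpa1 was the only replication gene with its highest mean at day 1. It encodes the large subunit of replication protein A, which coats single-stranded DNA at the fork, and lies on chr11:75298166-75348324 (minus strand). Rpa1 was at 557 and 679.8 CPM in stem cells, 884 and 889.6 after 1 day, 357 and 401 after 2 days, 194 and 269 after 3 days, and 245, 258 and 257 in the sorted cells. Both day 1 libraries lay above all 9 others, and both day 2 libraries lay below all of days 0 and 1. The fall at day 2 passed the test (log2 fold change -1.23 ± 0.20, adjusted p = 0.00318 against day 1), as did day 3 against day 0 (log2 fold change -1.43 ± 0.20, adjusted p = 0.00036). The excess at day 1 over day 0 missed the threshold (log2 fold change 0.51 ± 0.19, adjusted p = 0.0941) and passed it under 8 of the other settings. Among these were the GC offset with an adjusted p of 0.027 and the deposited voom values with 0.0231, and over all settings the adjusted p ran from 0.0126 to 0.308. Its partners took another course. Rpa2, the middle subunit, was at 178 and 130.5 CPM in stem cells, 91.6 and 112 after 1 day, 112 and 124 after 2 days, 77.1 and 101 after 3 days, and 97.1, 103 and 103.5 in the sorted cells. Its day 1 and day 2 libraries overlapped, and it was called lower at day 3 (log2 fold change -0.80 ± 0.20, adjusted p = 0.00915 against day 0), a call lost without replicate 1 of day 3. Rpa3, the small subunit, stayed between 24.4 and 39.9 CPM in all libraries and was not called at day 3 (log2 fold change -0.40 ± 0.20, adjusted p = 0.111 against day 0).

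Per length, the proportions of the 3 RPA subunits differed between days. The ratio of Rpa1 to Rpa2 FPKM was 1.84 and 2.94 in stem cells, 5.59 and 4.61 after 1 day, 1.89 and 1.94 after 2 days, 1.59 and 1.56 after 3 days, and 1.51, 1.48 and 1.66 in the sorted cells. Both day 1 ratios stood above the rest. At day 1 Rpa1 had the highest FPKM of the 40 genes, at 234 and 256. The 2 nearest protein-coding genes on each side of Rpa1 in RefSeq were looked up after the Rpa1 values were seen. Smyd4 starts beside Rpa1 on the other strand and runs away from it. Smyd4 was at 37.4 and 43.3 CPM in stem cells, 57.3 and 60.8 after 1 day, 18.8 and 20.8 after 2 days, and 14.2 and 16.9 after 3 days. Its day 1 libraries were also the highest. The difference from day 0 missed the threshold (log2 fold change 0.54 ± 0.18, adjusted p = 0.0661) and the fall at day 2 passed it (-1.58 ± 0.19, adjusted p = 0.000771). The low Rtn4rl1, at 5.89 and 7.09 CPM at day 1, against 1.97 and 1.70 CPM at day 0, was called higher at day 1 (1.81 ± 0.41, adjusted p = 0.016) and lower at day 2 against day 1 (-1.81 ± 0.41, adjusted p = 0.0165). Serpinf1 was called higher in both comparisons (0.94 ± 0.23 and 0.75 ± 0.23, adjusted p = 0.0205 and 0.0464), and Dph1 in neither (-0.37 ± 0.24 and 0.50 ± 0.24, adjusted p = 0.315 and 0.166).

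The genes that finish the lagging strand fell modestly. Lig1, the ligase that seals Okazaki fragments, was at 357 and 310.3 CPM in stem cells, 243 and 274 after 1 day, 256 and 260.3 after 2 days, 198 and 238 after 3 days, and 235, 249 and 251 in the sorted cells. Fen1, the nuclease that trims their flaps, was at 160.5 and 125.2 CPM in stem cells, 102 and 124.6 after 1 day, 131.99 and 143 after 2 days, 79.9 and 106 after 3 days, and 105, 110.4 and 109.7 in the sorted cells. Both libraries of day 3 lay below both of day 0 for each gene (log2 fold change -0.62 ± 0.16, adjusted p = 0.00891 for Lig1; log2 fold change -0.63 ± 0.19, adjusted p = 0.0217 for Fen1), and neither was called without replicate 1 of day 3. Both calls were also lost on FPKM values. A share of 78.8% of the exon bases of Fen1 overlaps the antisense gene Gm10143, so its counts are uncertain.

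Of the deoxynucleotide genes, Tyms and Rrm2 were lower at day 3 and Rrm1 was not called. Tyms, which makes dTMP, was at 131.1 and 155 CPM in stem cells, 109 and 102 after 1 day, 103.7 and 102 after 2 days, 52.5 and 77.7 after 3 days, and 93.7, 94.6 and 83.6 in the sorted cells. It was 2.21-fold lower at day 3 than at day 0 (log2 fold change -1.15 ± 0.20, adjusted p = 0.00127), and both day 3 libraries lay below all others. Rrm2 is the small subunit of ribonucleotide reductase. Its levels were 512 and 569 CPM in stem cells, 319.6 and 256 after 1 day, 412 and 374 after 2 days, 274 and 419 after 3 days, and 484, 493 and 449.8 in the sorted cells. Its day 1 libraries were below those of days 0 and 2, and it was 1.88-fold lower at day 1 than at day 0 (log2 fold change -0.91 ± 0.22, adjusted p = 0.019). The smaller difference at day 3 passed the test too (log2 fold change -0.65 ± 0.22, adjusted p = 0.0305) but was lost under 8 of the 20 other settings. Rrm1, the large subunit, was at 542 and 601 CPM in stem cells, 487 and 415 after 1 day, 533 and 487 after 2 days, 426 and 527 after 3 days, and 633, 571 and 539 in the sorted cells and was not called in any of the 5 comparisons. The ratio of Rrm2 to Rrm1 FPKM was 2.37 and 2.38 in stem cells, 1.58 and 1.63 after 1 day, 2.07 and 1.94 after 2 days, 1.66 and 2.07 after 3 days, and 1.96, 2.15 and 2.06 in the sorted cells. Both day 1 ratios were below all others, with replicate 1 of day 3 close to them.

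The decline was then followed from day to day. At day 1, 7 of 40 genes were lower than at day 0 and 0 higher, against 8.91% and 12.0% of all genes, with a median log2 fold change of -0.42 against 0.011 over all genes. These 7 were Orc1, Mcm3, Mcm7, Mcm10, Pcna, Rfc5 and Rrm2, and 39 of the 40 estimates were below 0. The count depended on the treatment of GC content, since 24 genes were lower and 1 was higher with the offset, where 17.6% of all genes were called lower. It was 3 without replicate 2 of day 0, against 4.99% of all genes, and 4 without replicate 1 or replicate 2 of day 2, against 5.54% and 5.18%. On log2(FPKM + 1) values it was 1, against 4.75% of all genes. Libraries of day 1 lay below both of day 0 in 28 of the 40, where 26.5% of all genes did, and above them in 1, where 29.1% did.

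At day 2 against day 1 as many estimates were above 0 as below it. Of the 40 genes 1 was higher, Mcm7, and 1 was lower, Rpa1, against 9.65% and 9.99% of all genes, and the median log2 fold change was 0.00. The Mcm7 call was lost without replicate 1 of day 1 or either replicate of day 2, and 3 genes were higher and 2 lower without replicate 2 of day 1, against 14.2% and 10.2% of all genes. Estimates were above 0 for 6 of 6 helicase ring genes (median 0.26) and below 0 for 5 of 6 origin recognition genes (median -0.35). The libraries of day 2 lay above those of day 1 without overlap in 15 of the 40, where 34.8% of all genes did, and below them in 16, where 33.6% did. Of the 40 genes, 20 had means that dipped at day 1 and again at day 3 and 18 had means that were lower on each following day, patterns that 14.6% and 15.9% of all genes had.

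At day 3 against day 2 no replication gene passed the test, although 39 of 40 estimates were below 0 and the median was -0.38, against -0.007 over all genes. Over all genes 1.26% were called lower and 2.81% higher. In edgeR 16 of the 40 had an unadjusted p under 0.05, all lower, against 20.8% of all genes in either direction. DESeq2 called 1 lower, against 3.11% of all genes, and edgeR with the GC offset called 12 lower, where 6.13% of all genes were. Without replicate 2 of day 3 edgeR called 3 lower, against 0.895% of all genes. Both day 3 libraries lay below both of day 2 in 36 of the 40, where 31.4% of all genes did. The smallest adjusted p was 0.0798, for Rpa1. All 10 neuron markers were called higher in the same comparison, with sums of 1464 and 1172 CPM at day 3, against 195 and 154 CPM at day 2, and the part of neurons in the lower estimates was not tested.

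The sorted progenitors of day 3.5 were set against whole day 3 cultures, a comparison in which the sort, the day and whatever the separate prefix stands for cannot be told apart. None of the 40 genes was called, where 0.435% of all genes were called higher and 2.94% lower. Of the 40 estimates, 38 were above 0 with a median of 0.22, against -0.005 over all genes. In edgeR 6 of the 40 had an unadjusted p under 0.05, all higher, a share near the 15.4% of all genes that had one in either direction. DESeq2 called 0 of the 40, and the GC offset gave 2 higher and 1 lower, against 1.94% and 5.04% of all genes. All sorted libraries lay above both day 3 libraries in 9 genes, namely Gmnn, Mcm7, Cdc45, Pcna, Rfc3, Rfc4, Rrm1, Rrm2 and Tyms, where 12.8% of all genes did. They lay below in 0 genes, where 20.3% of all genes did. The largest estimate was that of Tyms (log2 fold change 0.49 ± 0.16, adjusted p = 0.156), with 0.47 ± 0.18 for Rrm2. Estimates below 0 belonged to Orc1 (log2 fold change -0.27 ± 0.21, adjusted p = 0.593) and Orc5 (log2 fold change -0.19 ± 0.18, adjusted p = 0.677). The low replicate 1 of day 3 enters this comparison, and without replicate 2 of day 3, which leaves it as the only library of its day, 3 genes were called higher, against 0.192% of all genes. As in every setting that leaves a day with 1 library, that library is then assumed to vary like those of the other groups. Of the marker lists in this comparison, 3 of 6 pluripotent markers and 1 of 6 fibroblast markers were called lower, 1 of 8 progenitor markers was called higher, and none of 10 neuron markers was called. Extraembryonic endoderm markers were all 5 called lower in the sorted cells, with sums between 33.9 and 39.4 CPM, against 142 and 182 CPM at day 3, and their part in the result was not tested.

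Genes that act around the machinery followed it to different degrees at day 3 against day 0. Of 29 other fork and origin genes measured, 13 were lower and 1, Pold4, was higher, with a median log2 fold change of -0.52, against 26.3% of all genes lower and 27.6% higher. Pclaf was not analysed here. Rif1, which restrains late origins, was at 775 and 1103 CPM in stem cells, 921 and 634 after 1 day, 397 and 368 after 2 days, 323 and 352 after 3 days, and 368, 351 and 291 in the sorted cells. It was lower at day 2 than at day 1 (log2 fold change -1.03 ± 0.23, adjusted p = 0.015) and lower at day 3 than at day 0 (log2 fold change -1.49 ± 0.23, adjusted p = 0.000715), and both libraries of day 2 lay below those of day 1. Tipin, of the fork protection complex, and Gins4, a GINS subunit, were lower by 1.49 and 1.13 on the log2 scale (adjusted p = 0.000633 and 0.00053). Of 11 genes of replication-coupled chromatin assembly 7 were lower and 0 higher (median -0.71), set against the same shares of all genes. Hells, a remodeler that aids maintenance of DNA methylation, was at 897 and 1268 CPM in stem cells, 753 and 532 after 1 day, 374 and 363 after 2 days, 186 and 306 after 3 days, and 337, 316 and 275 in the sorted cells. It was 4.42-fold lower at day 3 than at day 0 (log2 fold change -2.15 ± 0.29, adjusted p = 0.000291). Chaf1b, of the histone chaperone CAF-1, and Nasp, a chaperone for H3 and H4, were lower too (adjusted p = 0.002 and 0.00316).

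Nucleotide synthesis beyond the listed genes moved early. Of its 20 genes, 12 were lower at day 1 than at day 0 and 15 were lower at day 3 than at day 0, against 8.91% and 26.3% of all genes, with none higher in either comparison and medians of -0.77 and -1.02. Shmt1, which supplies one-carbon units for thymidylate, was at 230.2 and 220.2 CPM in stem cells, 72.8 and 94.2 after 1 day, 90.0 and 94.0 after 2 days, 42.4 and 65.1 after 3 days, and 56.2, 61.9 and 51.4 in the sorted cells. Both day 1 libraries lay below all of day 0 (log2 fold change -1.44 ± 0.22, adjusted p = 0.00275), and day 3 was lower still (log2 fold change -2.07 ± 0.22, adjusted p = 8.19e-05 against day 0). Dut, which removes dUTP, and Atic, which completes the purine ring, were lower at day 3 by 1.79 and 1.47 on the log2 scale (adjusted p = 0.000128 and 0.000156).

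Of 19 regulators of the G1 to S transition, 7 were lower and 6 higher at day 3 than at day 0, counts near the shares of all genes (26.3% and 27.6%). Ccne1 is the cyclin that drives entry into S phase with Cdk2. Its levels were 453 and 483 CPM in stem cells, 211 and 208 after 1 day, 181 and 188 after 2 days, 69.4 and 109 after 3 days, and 99.3, 108 and 84.8 in the sorted cells. Each step down to day 3 was without overlap, and day 3 was lower than day 0 (log2 fold change -2.40 ± 0.21, adjusted p = 3e-05). Mycn and Myc, growth-promoting transcription factors, dipped at day 1 and rose again at day 2. Mycn was at 108 and 81.5 CPM in stem cells, 17.4 and 17.1 after 1 day, 94.0 and 93.6 after 2 days, 57.8 and 80.6 after 3 days, and 55.1, 59.6 and 60.2 in the sorted cells (log2 fold change -2.47 ± 0.21, adjusted p = 0.000238 at day 1 against day 0; log2 fold change 2.44 ± 0.21, adjusted p = 0.000191 at day 2 against day 1). Myc fell to a mean of 11.3 CPM at day 1, against 57.3 CPM at day 0 (log2 fold change -2.35 ± 0.27, adjusted p = 0.000832), and was higher at day 2 than at day 1 (log2 fold change 1.96 ± 0.26, adjusted p = 0.00141). From a mean of 44.2 CPM at day 2, Myc stood at 15.2 and 20.7 CPM after 3 days. In the sorted cells it was at 12.0, 15.6 and 13.5 CPM. Among the E2F factors at day 3 against day 0, E2f4 and E2f8 were lower (-1.07 ± 0.27 and -1.17 ± 0.15, adjusted p = 0.00801 and 0.000266). E2f7 stood at 51.5 and 48.3 CPM at day 0, and at 51.6 and 72.7 CPM at day 3. E2f5 and E2f6 were higher (0.96 ± 0.20 and 0.62 ± 0.14, adjusted p = 0.00326 and 0.00544), and the activators E2f1, E2f2 and E2f3 were not called (adjusted p = 0.717, 0.09 and 0.356). The pocket proteins Rb1, Rbl1 and Rbl2, which hold E2F factors in check, were all higher at day 3 (1.26 ± 0.23, 0.66 ± 0.21 and 1.03 ± 0.30). These E2F and pocket protein genes are outside the naming rule and were picked after their values were seen.

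Checkpoint and mitosis genes were also mostly lower at the end of the course. Of 9 replication checkpoint genes, 6 were lower at day 3 than at day 0 and 0 higher (median -0.75). Among the 6 were Rad1, a subunit of the checkpoint clamp, Rad17, which loads that clamp, and Chek1, a checkpoint kinase (adjusted p = 0.000621, 0.00375 and 0.00837). Of 12 mitosis genes, 7 were lower at day 3 than at day 0 and 0 higher (median -0.54), where 26.3% of all genes were lower and 27.6% higher. The 7 included Ccnb1, Cdk1 and Ccnb2, the cyclins and kinase of mitotic entry (-1.11 ± 0.23, -0.73 ± 0.14 and -0.42 ± 0.14). At day 1 against day 0 edgeR called none of the 12 mitosis genes, with a median of 0.06, beside 7 of 40 and a median of -0.42 for the replication genes. Over all genes 8.91% were lower and 12.0% higher at day 1, and the difference between the lists was not tested.

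As a description over the 11 libraries, which share depth and scaling, the log2 level of a gene correlated with the median profile of the other replication genes at 0.981 for Mcm6, 0.977 for Pold3 and 0.971 for Tyms. The lowest values were -0.203 for Pold1, -0.186 for Pold2 and -0.142 for Rfc2. These genes were low in both replicate 2 of day 0 and replicate 1 of day 1.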

How the data were processed

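Polyadenylated RNA of 11 E14 libraries was prepared with TruSeq polyA selection, per the labels' protocols. The submitters' processing notes list TopHat2 2.0.4, Cufflinks 2.1.1, HTSeq 0.6.1, limma, CASAVA and bcl2fastq 1.8.3, and the builds mm10 and GRCm38, with no roles. No source used here gives the annotation or the strand of counting. The deposited count table gives expected counts, since 104 of 38197 genes have fractions (none of the replication genes), and these were rounded. The deposited log2 values were recomputed as voom log2 CPM from those counts, and the deposited FPKM values are the authors' own.

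The edgeR 4.0.16 quasi-likelihood test (R 4.3.3) was run on the counts with TMM scaling, filterByExpr with a minimum count of 10, and Benjamini-Hochberg adjustment with a threshold of 0.05. Days 0 to 3 were fitted on 8 libraries (16811 genes) and day 3.5 against day 3 on all 11 (17030 genes). All 40 members passed the filter. Positions and GC content, available for 92.8% of tested genes, came from GENCODE M21. FPKM alternatives used limma 3.58.1, pseudocounts of 1 or 0.1 and a minimum FPKM of 1 in 2 libraries. The other alternatives were DESeq2 1.42.0, RLE size factors, no filter, a lowess offset along GC with span 0.3, a replicate block, other libraries in the fit, the deposited log2 values, and leaving out each library. Values in every library are given for the 2 genes per role, and tests for up to 3 genes per other list, with the smallest F test p, beside members named for their course. Members, lists and the naming rule were chosen with earlier results of these data known. Scripts were tested on simulated data. A level counts as measured above 3 counts in a library, for counting error only.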

Additional observations from a re-analysis of the deposited data

How the results depend on the processing

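The count of genes lower at day 3 than at day 0 (31) stayed between 22 and 35 under every alternative except without replicate 1 of day 3, with a leave-one-out range of 19 to 33. At day 1 against day 0 the 7 lower genes became 24 with the GC offset, 21 with the replicate block and GC offset, 11 with other libraries in the fit, 4 with the deposited voom values, 1 with each FPKM setting and 2 without the pair of low-GC libraries (day 0 replicate 2 and day 1 replicate 1, a setting chosen after seeing the data), with a leave-one-out range of 3 to 9, lowest without day 0 replicate 2. The 0 higher genes of that comparison became 1 without a filter, with other libraries, with either GC setting, with FPKM and with voom. At day 2 against day 1 the 1 higher gene became 3 without a filter, 2 with DESeq2 and with other libraries, 6 with either GC setting, and 0 with the FPKM settings, voom and the low-GC pair left out (leave-one-out 0 to 3), and the 1 lower became 2 with other libraries, the GC offset and voom (leave-one-out 1 to 2). At day 3 against day 2 the 0 lower became 5 without a filter, 1 with DESeq2, 3 with other libraries, 12 and 8 with the GC offset without and with the block, and 4 without the low-GC pair (leave-one-out 0 to 3). For sorted cells against day 3, the GC offset gave 2 higher and 1 lower, against 0 and 0 (leave-one-out 0 to 3 higher). The test of any change (28) gave 15 with FPKM at either pseudocount and 12 without the FPKM filter (leave-one-out 15 to 32, lowest without day 3 replicate 1, and 17 without day 2 replicate 2). Correlations between same-numbered replicates ran from -0.449 to 0.181. Differences between replicates also ran along GC content, so these values cannot settle whether the numbers pair the samples. The replicate block alone gave 4 lower at day 1, 0 higher at day 2, 30 lower at day 3 against day 0 and 21 with any change. A tally over the other settings took each member in each comparison that called it, and Rpa1 at day 1 against day 0. No direction turned among its 820 alternatives. Of these, 702 kept their side of the threshold, 110 lost it and 8 gained it. All but Rpa1 at day 1 were called from the outset, so only that result could gain a call. Genes called only under another setting are outside this tally. The causes of these shifts were not tested. With 2 libraries per day, a setting without 1 of them leaves that day a single library, assumed to vary like those of the other days. The effect of depth was not tested.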
